A study of Mus musculus with 18 samples.

Results

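The comparison described here set an antibody against an equal mass of a control protein in fibroblasts that carry abundant TRIM21. Its members were chosen by label: the 3 samples of the TRIM21 line electroporated with immunoglobulin G (IgG) and the 3 of the same line electroporated with bovine serum albumin (BSA), which makes 6 of the 18 samples of the series. The samples carry the title numbers 10, 11 and 14, each once per group, and samples with the same number are set side by side below. No gene passed the adjusted threshold between IgG and BSA, so most of the values below say how large a difference the data leave room for.

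TRIM21 is a cytosolic E3 ubiquitin ligase and the intracellular receptor for the constant region of antibodies. When antibody enters the cytosol bound to a target, TRIM21 binds it, builds ubiquitin chains with the conjugating enzymes UBE2W, UBE2N and UBE2V2, and the p97 ATPase and the proteasome then degrade the complex. The same chains can start signalling through the kinases TAK1, IKK and TBK1 to the transcription factors NF-kB, AP-1 and the interferon regulatory factors. In fibroblasts that route is known for inducing cytokines when antibody-coated viruses enter, and electroporated antibody is also used to remove chosen proteins. Whether antibody alters the transcriptome where TRIM21 is abundant is the question that the comparison addresses.

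All cells were mouse NIH3T3, an immortalised embryonic fibroblast line. The TRIM21 line is NIH3T3-mCherry-mTRIM21, 1 derived line that carries a fusion of mouse TRIM21 with mCherry, a fluorescent protein; the labels give neither its promoter nor whether it is clonal. In each reaction the cells received 7.5 µg of antibody or BSA and 2 pulses of 20 ms at 1400 V, and RNA was taken after 16 h. The labels give the antibody by a catalogue number and do not name its target, so whether these cells hold a target for it is not stated. The other groups were the TRIM21 line with PBS and the parental line with PBS, BSA or IgG, 3 samples each. Both groups compared here share the fusion, the electroporation and the mass of protein delivered. The labels do not say that the samples of a group came from separate cultures, so p-values measure the spread between these samples, which may be technical.

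The 6 libraries held 20625267 to 29766433 counts in genes, with 20625267 to 23319632 after IgG and 22356584 to 29766433 after BSA. At these depths 3 counts, taken as the lowest level that counts as detected, correspond to 0.101 to 0.145 CPM (counts per 1e6 gene counts) before the library sizes are scaled. Reads outside annotated genes made up 13.9% to 18.3% of counted reads. No 2 of the 6 libraries were near duplicates, since every pair differed by a chi-square of 8.85 to 39.1 per degree of freedom. Fibroblast markers dominated as the label says, and the 10 listed summed to 26973 to 29662 CPM after IgG and 24420 to 28937 CPM after BSA, although lumican (Lum) had 1 to 17 counts. Leukocyte markers summed to 7.96 to 11.9 CPM after IgG and 7.46 to 9.74 CPM after BSA, nearly all of it from Cd68 (115 to 210 counts) and Csf1r (43 to 83 counts). The other 4 leukocyte markers were at 0 (Emr1) or at 5 counts or fewer (Ptprc, Lyz2 and Itgam) in every library. Endothelial markers summed to 1.12 to 1.22 CPM after IgG and 0.883 to 1.11 CPM after BSA, epithelial markers to 1.70 to 2.00 and 1.39 to 1.44 CPM, and muscle markers, with Myod1 and Myog at 0, to under 1 CPM in both. Adipocyte and neural markers were nearly all 1 gene each, Lpl and Tubb3, and Cfd and Sox10 were at 0.

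Trim21, the receptor gene, was similarly abundant in both groups. It is a protein-coding gene on the minus strand of chromosome 7, at 102557921 to 102565486 in GRCm38. Its level was 999, 984 and 1034 CPM in the IgG samples numbered 10, 11 and 14 and at 996, 1028 and 1054 CPM in the BSA samples. The groups overlapped, and the 6 parental samples with IgG or BSA lay far below them at 6.54 to 8.82 CPM. The log2 fold change of Trim21 between IgG and BSA was -0.03 (SE 0.125), and a two-sided exact permutation test over the 20 assignments of 3 against 3 gave p = 0.50, where the smallest possible value is 0.10. Its 95% interval lay within 1.22-fold of no change. Counts do not separate the endogenous transcript from that of the fusion, and mRNA says nothing of how much TRIM21 protein remained after antibody.

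Of 12140 genes tested, 0 differed at an adjusted p under 0.05 (0%; quasi-likelihood test of edgeR, Benjamini-Hochberg adjusted), and the smallest adjusted p was 1.0. At an unadjusted p under 0.05 there were 45 genes (0.371% of those tested), 22 higher after IgG (0.181%) and 23 lower (0.189%). Evenly spread p-values would put a share of 0.05 under that threshold, so the p-values here ran high, and the cause was not tested. All but 1 of the 45 lay below a mean of 10 CPM. The exception was Cep290, a protein of the ciliary transition zone, described below with the largest differences. DESeq2's Wald test and limma-voom also called 0 genes, with 26 and 42 at an unadjusted p under 0.05. Estimates were higher after IgG for 5809 genes (47.9%) and lower for 6330 (52.1%). The 3 IgG samples lay entirely above the 3 BSA samples for 221 genes (1.82%) and entirely below for 241 (1.99%), which makes 462 genes without overlap (3.81%).

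**Figure D1:**
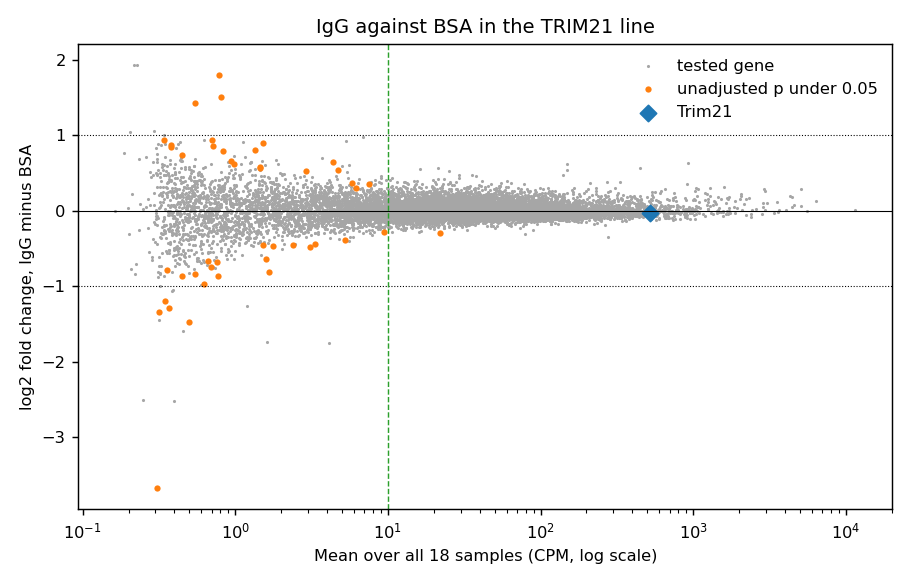
Log2 fold change (IgG minus BSA) of the 12140 tested genes against their mean level over all 18 samples (CPM, log scale), with the 45 genes at an unadjusted p under 0.05 in orange and Trim21 as a blue diamond. Differences of more than 2-fold, beyond the dotted lines, are all left of the dashed line at 10 CPM.

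How large a change the data leave room for was read from the 95% interval of each gene's fold, and the bound of a gene is the end of that interval farther from no change. Genes with a mean of at least 10 CPM over the 18 samples are called well expressed here, and 9009 genes met this. Their median absolute log2 fold change was 0.056, and 95% of them lay under 0.20. Only Rplp1 and Rpl36, 2 ribosomal protein genes, had estimates over 1.5-fold, and none was over 2-fold. The bound was within 1.2-fold for 2034 of the 9009 genes (22.6%), within 1.5-fold for 8360 (92.8%) and within 2-fold for 8962 (99.5%), which leaves 47 genes. The median bound was 1.25-fold and the 95th percentile was 1.55-fold. These are intervals for single genes. With intervals widened to cover all well-expressed genes at once (Bonferroni), the median bound was 1.83-fold, 449 genes (4.98%) lay within 1.5-fold, 6073 (67.4%) within 2-fold and 8851 (98.2%) within 4-fold.

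The median bound tightened with each class of expression, and least between the highest classes. Under 1 CPM (897 genes) the median bound was 2.18-fold and 35.5% of genes lay within 2-fold. From 1 to 10 CPM (2234 genes) it was 1.5-fold, with 92.8% within 2-fold. From 10 to 100 CPM (6728 genes) it was 1.26-fold and 91.9% of genes lay within 1.5-fold, and from 100 CPM up (2281 genes) 1.23-fold and 95.3%. The share within 1.2-fold was 19.1% from 10 to 100 CPM and 32.8% from 100 CPM up. The widest bounds among well-expressed genes were those of Mir6236 (4.31-fold), Lars2 (3.72-fold) and Rn45s (3.60-fold). Rn45s is the ribosomal RNA precursor, and its level of 481 to 1355 CPM after IgG and 399 to 1116 CPM after BSA varied within both groups. It was also the only well-expressed gene higher by at least 1.2-fold after IgG within each of the 3 numbers, and it was picked out after its values were seen; its log2 fold change was 0.30 (SE 0.734).

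**Figure D2:**
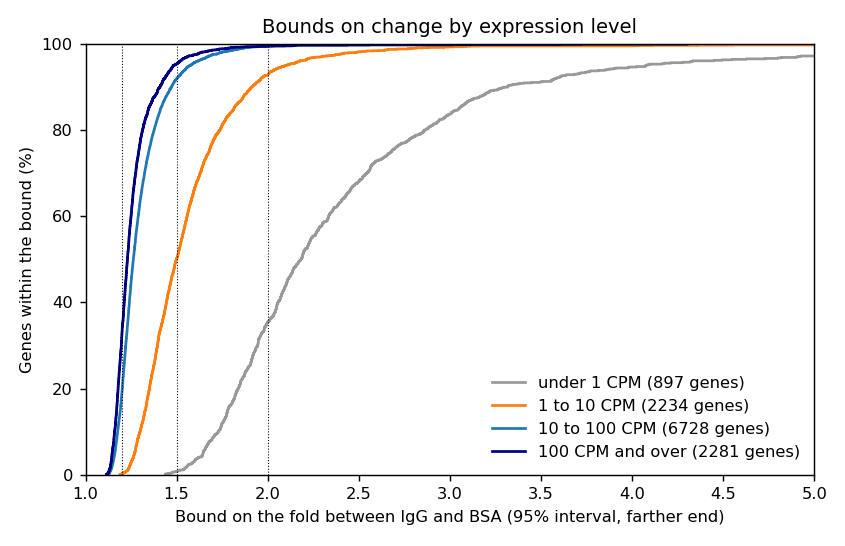
Share of genes (%) whose bound on the fold between IgG and BSA lies at or below the value on the horizontal axis, for 4 classes of mean level. At 1.5-fold the curves reach 91.9% for 10 to 100 CPM and 95.3% for 100 CPM and over, against 50.1% for 1 to 10 CPM.

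The tightest bounds belonged to Eps8, Lsm14a, Arhgap10, Cmtr1 and Usp4. Eps8, a regulator of actin capping, stood at 329, 321 and 332 CPM after IgG and 326, 319 and 336 CPM after BSA, a bound of 1.11-fold. Usp4, a deubiquitinase, stood at 159, 158 and 155 CPM after IgG and 158, 157 and 156 CPM after BSA, a bound of 1.12-fold. Cmtr1, an mRNA cap methyltransferase, had the same bound at 115, 115 and 116 CPM against 115, 118 and 116 CPM. In these genes the 6 libraries were nearly level and the groups overlapped. The 5 most abundant genes were Eef1a1 and Eef2, which are translation elongation factors, the intermediate filament gene Vim, the collagen gene Col1a2 and Lox, the enzyme that cross-links collagen. Their bounds were 1.21-fold, 1.57-fold, 1.28-fold, 1.41-fold and 1.39-fold in that order.

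Distances between libraries were compared next. The root mean square log2 distance between an IgG and a BSA library of the same number averaged 0.182 (0.145 to 0.245 over 3 pairs), and between different numbers 0.222 (0.178 to 0.291 over 6 pairs). Within the IgG group it was 0.205 on average (0.165 to 0.249) and within the BSA group 0.255 (0.249 to 0.258). Distances between the treatments overlapped those within them. The widest of all 15 pairs, at 0.291, joined an IgG and a BSA library, and on average IgG and BSA libraries of different number were farther apart than IgG libraries and closer than BSA libraries.

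Differences within a number were uneven and ran in opposite ways. Among well-expressed genes, 19 differed by more than 1.5-fold between the samples numbered 10, all higher after IgG. Between the samples numbered 11 there were 259, of which 253 were higher after IgG and 6 lower. Between those numbered 14 there were 14, of which 2 were higher and 12 lower. No well-expressed gene exceeded 1.5-fold the same way in all 3 numbers. Among all tested genes 2 did so upward and 2 downward. Of these, picked out after their values were seen, Sfrp1, a secreted Wnt antagonist, and Dapk1, a death-associated kinase, were higher after IgG, while Cxx1c was lower, each of them under 1 CPM. Sfrp1 stood at 0.130, 0.396 and 0.538 CPM after IgG against 0.0397, 0.179 and 0.164 CPM after BSA. Across the 9009 genes, the differences at number 10 and number 11 correlated at 0.496, while those at number 14 correlated at -0.483 with number 10 and -0.447 with number 11. Genes are not independent replicates, and these correlations describe these libraries.

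These opposing differences followed the base composition of transcripts. Over the 8977 well-expressed genes with a known transcript (99.6%), the Spearman correlation across genes between the log2 difference and the GC content of the longest transcript was 0.434 at number 10, 0.725 at number 11 and -0.389 at number 14. With genes ordered by GC content and cut into 10 equal classes, in the highest class (median 59.1%) the median log2 difference was 0.20, 0.39 and -0.12 at the 3 numbers. In the lowest class (median 39.6%) it was -0.047, -0.19 and 0.090. Over all 3 numbers the fitted change correlated at 0.612 with GC content and at -0.253 with transcript length. The correlation with length was 0.176 at number 10, -0.175 at number 11 and -0.333 at number 14. Genes whose IgG samples all lay above the BSA samples had a median GC content of 54.5%, and those whose IgG samples all lay below had 47.3%, against 49.5% over all tested genes. The part of GC content, which moves with the gene groups below, was not tested.

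**Figure D3:**
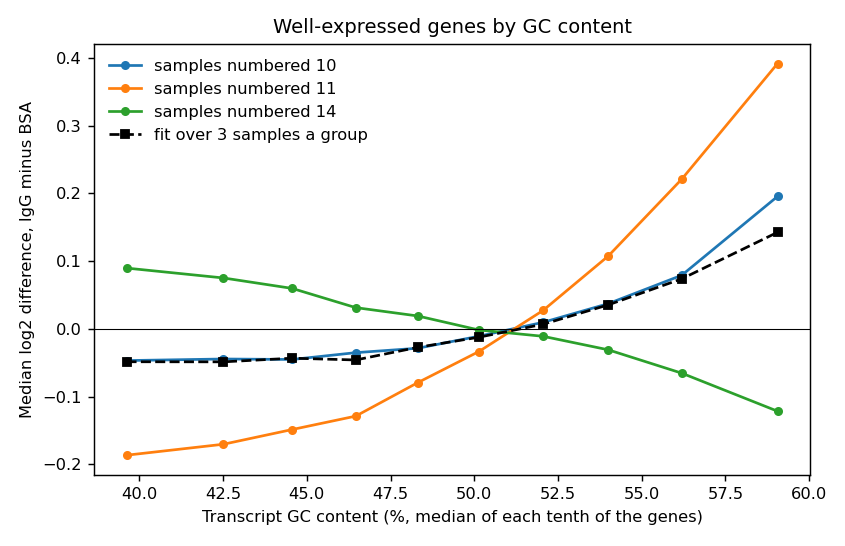
Median log2 difference between IgG and BSA for 10 classes of the well-expressed genes ordered by transcript GC content (%), within each title number and in the fit over 3 samples a group. The lines for numbers 10 and 11 climb to 0.20 and 0.39 in the highest class, while that for number 14 descends to -0.12.

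None of the largest differences passed the test, and their values are given as a description. Among well-expressed genes that were higher after IgG at all 3 numbers, Rplp2 led. It encodes an acidic protein of the ribosomal stalk and stood at 815, 558 and 384 CPM after IgG and 505, 299 and 377 CPM after BSA. At number 14 the values were nearly equal, and the groups overlapped. The log2 fold change of Rplp2 was 0.57 (SE 0.371), with a bound of 2.56-fold. Rpl27a, of the large ribosomal subunit, stood at 274, 175 and 123 CPM after IgG and 156, 116 and 120 CPM after BSA (0.55, SE 0.264, bound 2.15-fold). Its number 14 samples were again close. Igfbp6, a secreted binder of insulin-like growth factors, stood at 297, 239 and 206 CPM after IgG and 218, 150 and 206 CPM after BSA (0.37, SE 0.254, bound 1.87-fold).

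Zfp787, a zinc finger gene, and Adc, which is related to ornithine decarboxylase, were the 2 of the 10 largest positive differences in which the groups did not overlap. Zfp787 stood at 13.6, 12.2 and 10.8 CPM after IgG against 9.37, 7.60 and 10.5 CPM after BSA (log2 fold change 0.41, SE 0.206, bound 1.79-fold). Adc stood at 27.9, 26.5 and 23.7 CPM against 23.1, 16.0 and 22.1 CPM (0.35, SE 0.321, bound 2.04-fold), and the BSA sample numbered 11 was the lowest of the 6 for both. The other genes of this group were Pgls of the pentose phosphate pathway (log2 fold change 0.39), Mvd of sterol synthesis (0.37), the deubiquitinase gene Josd2 (0.36), the iron-sulphur protein gene Bola2 (0.35) and Mypop (0.33). All 10 estimates were below 0 in the parental line, from -0.66 for Rplp2 to -0.24 for Mypop.

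The largest negative differences were smaller. Cep290 stood at 19.7, 18.7 and 19.9 CPM after IgG and 20.0, 24.5 and 27.0 CPM after BSA, so the groups did not overlap but nearly met, at 19.9 and 20.0 CPM. Its log2 fold change was -0.29 (SE 0.135), with an unadjusted p of 0.0449 and an adjusted p of 1.0 by edgeR, and a bound of 1.49-fold. Dkc1, which encodes dyskerin of the telomerase and snoRNA complexes, stood at 87.6, 69.4 and 80.3 CPM after IgG and 96.3, 89.2 and 97.1 CPM after BSA. The 3 IgG samples of Dkc1 lay below all BSA samples, with a log2 fold change of -0.25 (SE 0.147) and a bound of 1.48-fold. Tagap1 stood at 11.5, 10.5 and 12.5 CPM against 13.3, 14.7 and 13.0 CPM (-0.25, SE 0.12), and Zfp938 at 12, 10.6 and 11.03 CPM against 13.3, 14.1 and 12.5 CPM (-0.25, SE 0.143), also without overlap. The groups overlapped for the exportin gene Xpo4 (-0.29), the actin-binding nexilin gene Nexn (-0.29), the recombination gene Rad54b (-0.26), the kinetochore gene Ska2 (-0.25), the NKG2D ligand gene Ulbp1 (-0.24) and the mitochondrial methionyl-tRNA synthetase gene Mars2 (-0.24). In the parental line 5 of these 10 genes had estimates below 0, down to -0.16 for Zfp938 and Tagap1, and 5 above, up to 0.50 for Xpo4.

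**Figure D4:**
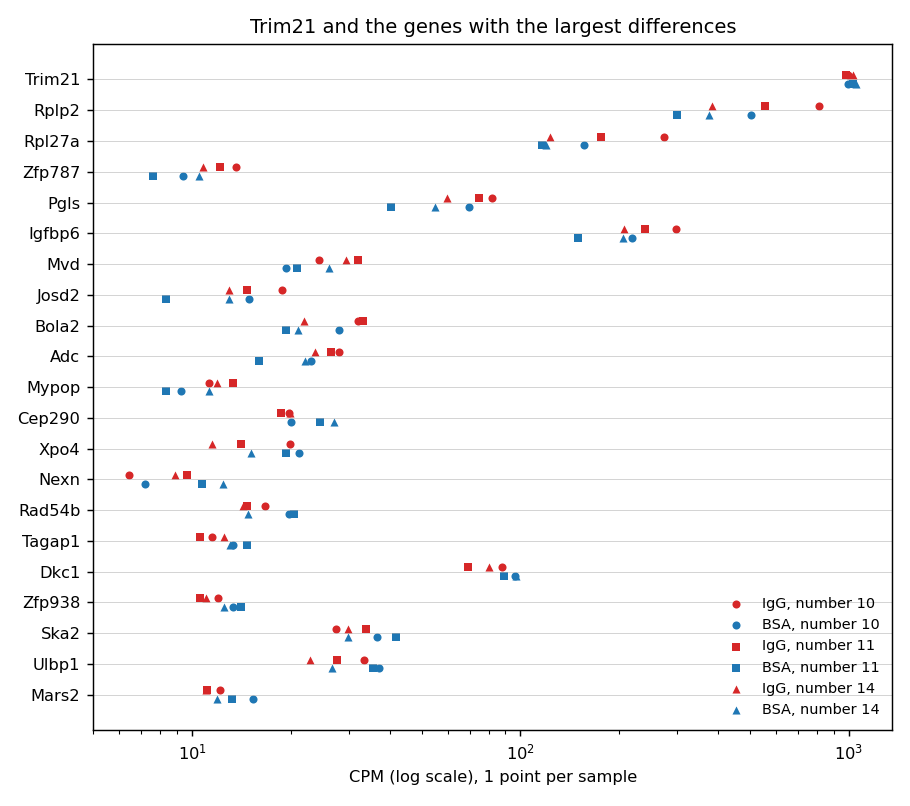
Level in each of the 6 samples (CPM, log scale) of Trim21 and of the 10 largest positive and 10 largest negative differences among well-expressed genes with the same direction at all 3 numbers, with red for IgG, blue for BSA and marker shape for title number. Red and blue points overlap in 14 of these 20 genes, and Trim21 spans only 984 to 1054 CPM.

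The smallest p-values belonged to genes of low expression. Zfp870, a zinc finger gene, stood at 2.96, 2.72 and 3.00 CPM after IgG and 1.95, 1.92 and 2.13 CPM after BSA. The groups were well apart and each was tight, with a log2 fold change of 0.53 (SE 0.167), an unadjusted p of 0.00524 and an adjusted p of 1.0 by edgeR. Anks6, a ciliary ankyrin repeat gene, stood at 5.44, 4.65 and 4.89 CPM against 3.30, 3.40 and 3.63 CPM (0.54, SE 0.198). The others on the higher side were the pseudogenes B330016D10Rik (0.80) and Gm5801 (0.89) and Phf11b (0.94). On the lower side were Ttc39a (-0.81), B930003M22Rik (-0.86), Ccdc18 (-0.49), the delta-tubulin gene Tubd1 (-0.46) and Actr3b (-1.29). Ttc39a stood at 1.52, 0.791 and 1.21 CPM after IgG and 1.63, 2.77 and 1.86 CPM after BSA. Actr3b stood at 0.130, 0.148 and 0.135 CPM after IgG, near the 3-count level, and 0.476, 0.224 and 0.327 CPM after BSA.

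The gene lists below were taken by pathway, and none of their members passed the test, at either the adjusted or the unadjusted threshold of 0.05. Beside each list, the reference is all 12140 tested genes. Of these 47.9% were higher after IgG, 3.81% had groups that did not overlap, and the median log2 fold change was -0.0054. Single members without overlap are therefore given as values, not as a result about their list. In bulk RNA, fewer cells of a kind and less RNA per cell cannot be told apart. Members given for their role, beyond the most abundant, the highest and the lowest of a list, were picked after their values were seen. The medians are small, and leaving out 1 sample changed the sign for 17 of the 21 lists, so the lowest and highest of these medians are given with each list.

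The machinery that TRIM21 works with was measured in full and lay close to no change. Of 22 genes listed, Trim21 itself included, 10 were higher and 12 lower (median -0.0065). The bound was within 1.5-fold for 20 of the 21 well-expressed ones. The list median ran from -0.052 without the BSA sample numbered 10 to 0.034 without the BSA sample numbered 11. The E2 enzyme gene Ube2n stood at 65.9, 66.6 and 69.3 CPM after IgG and 68.0, 75.7 and 59.2 CPM after BSA (bound 1.18-fold), and Ube2w had a bound of 1.2-fold and Ube2v2 of 1.26-fold. Vcp, which encodes the p97 unfoldase, stood at 246, 272 and 292 CPM against 230, 293 and 284 CPM (bound 1.19-fold). Psmd14, the proteasomal deubiquitinase, had a bound of 1.22-fold. The highest difference was that of the p97 cofactor gene Ubxn6 (0.18, bound 1.52-fold) and the lowest that of the cofactor gene Faf1 (-0.08). The ubiquitin fusion gene Rps27a, the most abundant of the list by its mean over all 18 samples, differed by 0.00 with a bound of 1.21-fold. In the 6 samples compared, Trim21 was more abundant.

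Among the 31 signalling genes below TRIM21, inhibitors included, 16 were higher and 15 lower (median 0.0061). Of the 26 well-expressed ones 25 were bounded within 1.5-fold. The list median ran from -0.017 without BSA 11 to 0.032 without IgG 11. Among the well-expressed ones Tnfaip3 had the widest bound (2.41-fold, SE 0.589). It stood at 15.1, 9.45 and 2.96 CPM after IgG and 16.0, 5.68 and 5.30 CPM after BSA. Map3k7, which encodes TAK1, stood at 100, 97.8 and 103 CPM after IgG and 101, 115 and 102 CPM after BSA (bound 1.23-fold). Tbk1 had a bound of 1.2-fold, Irf3 of 1.25-fold, the NF-kB gene Nfkb1 of 1.13-fold and the stress kinase gene Mapk14, the most abundant member, of 1.18-fold. Nfkbib, which encodes an inhibitor of NF-kB, had the highest estimate at 0.29. It stood at 12.3, 10.98 and 8.84 CPM after IgG and 9.81, 6.44 and 9.88 CPM after BSA, so the groups overlapped. Irf7, an interferon-inducible factor, had the lowest estimate (-0.16, SE 0.4) at 0.783 to 1.35 CPM after IgG.

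Interferon-stimulated genes were mostly low in these cells, and the data bound them less tightly. Of 59 listed genes 45 were tested and 21 were well expressed. The tested ones were higher in 29 and lower in 16 cases (median 0.051), with a median bound of 1.57-fold. At number 11 the list median was -0.040, and at numbers 10 and 14 it was 0.076 and 0.069. Ifitm2, an antiviral membrane protein gene and the most abundant member, was level at 305, 308 and 319 CPM against 288, 318 and 304 CPM (bound 1.21-fold).

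The ubiquitin-like modifier gene Isg15 stood at 3.04, 3.41 and 5.11 CPM after IgG and 3.22, 3.09 and 3.76 CPM after BSA (0.20, SE 0.314, bound 1.81-fold). Usp18, which removes that modifier, had the highest estimate (0.72, SE 0.367), at 0.826, 1.38 and 1.48 CPM against 0.635, 0.537 and 1.01 CPM. The groups of Usp18 overlapped, and its bound was 2.81-fold. The lowest estimate was that of Ifi44l (-0.46, SE 0.42, under 1 CPM). Only Dtx3l, an E3 ligase gene, had groups that did not overlap, at 19.5, 19.5 and 18.5 CPM after IgG and 17.0, 18.5 and 17.2 CPM after BSA (log2 fold change 0.13). Mx1, Rsad2, Oas2 and Ifih1 had at most 7 counts in any of the 6 libraries and were not tested. The list median was -0.0018 without BSA 10 and ran from -0.027 without IgG 14 (19 of 45 higher) to 0.097 without BSA 14 (34 of 45).

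Few cytokine genes were expressed. Of 32 listed chemokines and cytokines 19 were tested, 9 higher and 10 lower (median -0.0058), and 7 of the 8 well-expressed ones were bounded within 1.5-fold. This balance rested on single libraries, since 4 of 19 were higher without IgG 14 (median -0.12) and 13 of 19 without BSA 14 (0.055), and the highest median was 0.069 without IgG 11. Csf1, the macrophage colony-stimulating factor gene, stood at 529, 548 and 546 CPM after IgG and 521, 526 and 615 CPM after BSA (bound 1.21-fold). Ccl2, a monocyte chemokine gene, stood at 53.9, 43.6 and 49.2 CPM against 56.7, 44.0 and 56.7 CPM (-0.10, bound 1.28-fold). Il6 had the highest estimate (0.36, SE 0.492) at 0.565, 1.43 and 2.02 CPM against 0.635, 1.57 and 0.948 CPM. Its IgG sample numbered 14 was the highest, and without that sample the estimate was -0.074. The chemokine gene Ccl9 had the lowest estimate (-0.29, bound 1.62-fold). Ifnb1, Ifna4, Il1b and Cxcl2 had 0 counts in all 6 libraries, which allows up to 0.101 to 0.145 CPM in each, and Tnf and Cxcl10 had at most 1 and 7 counts.

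Of 34 NF-kB targets 27 were tested, 16 higher and 11 lower (median 0.015). The median ran from -0.0011 without IgG 10 to 0.056 without BSA 10. The inhibitor gene Nfkbia, an early and sensitive target, stood at 26.4, 20.9 and 20.1 CPM after IgG and 24.5, 16.7 and 22.2 CPM after BSA (0.09, SE 0.157, bound 1.33-fold). Of the 21 well-expressed targets 15 were bounded within 1.5-fold, and the widest bound was that of Tnfaip3 (2.41-fold), given above. The highest and most abundant members were Il6 and Csf1, given above. Ccl2 had the lowest estimate (-0.10), and no target had groups that did not overlap.

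Immediate early and AP-1 genes were higher in 28 of 31 cases (median 0.11) against 47.9% of all genes, but none passed the test and the median changed sign between numbers. It was 0.14 at number 10, 0.27 at number 11 and -0.058 at number 14. Junb had the highest estimate (0.55, SE 0.446, bound 2.80-fold), at 31.6, 19.0 and 14.8 CPM after IgG and 16.4, 8.54 and 19.6 CPM after BSA. The order was reversed at number 14. Jun stood at 161, 132 and 116 CPM against 137, 98.9 and 131 CPM (0.16, bound 1.37-fold), with the same reversal, and the most abundant member, Fosl2, differed by 0.05. Zfp36, which encodes an mRNA-destabilising protein, was the only member without overlap, at 25.4, 26.6 and 25.7 CPM after IgG and 22.7, 22.99 and 23.3 CPM after BSA (0.17). The lowest estimate was that of Klf6 (-0.07). Of the 26 well-expressed members 19 were bounded within 1.5-fold, and the widest bound was that of Junb. The list's median GC content was 54.4%, against 49.5% over all tested genes. With an offset for GC content 25 of 31 were higher and the median was 0.058, and without the BSA sample numbered 11 it was 0.027 with 17 of 31 higher. The highest median was 0.17 without BSA 14.

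Genes of nucleic acid sensing included 2 without overlap in opposite directions, of 21 tested, against 3.81% of all tested genes. Trex1, a cytosolic DNA exonuclease gene, stood at 9.74, 11.5 and 10.5 CPM after IgG and 7.46, 6.80 and 9.22 CPM after BSA, the highest estimate of the list (0.43, SE 0.239, bound 1.91-fold). Mb21d1, which encodes the DNA sensor cGAS, stood at 28.2, 28.3 and 32.3 CPM after IgG and 32.8, 33.6 and 33.7 CPM after BSA (-0.17). Neither passed the test, and of 21 tested members of 27 listed, 13 were higher and 8 lower (median 0.032, and -0.0054 with the GC offset). The median ran from 0.0017 without BSA 11 to 0.060 without BSA 14. All 14 well-expressed members were bounded within 1.5-fold. Samhd1, a nucleotide hydrolase gene and the most abundant, differed by -0.06, and the DNA sensor gene Aim2 had the lowest estimate (-0.26, near 1 CPM).

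**Figure D5:**
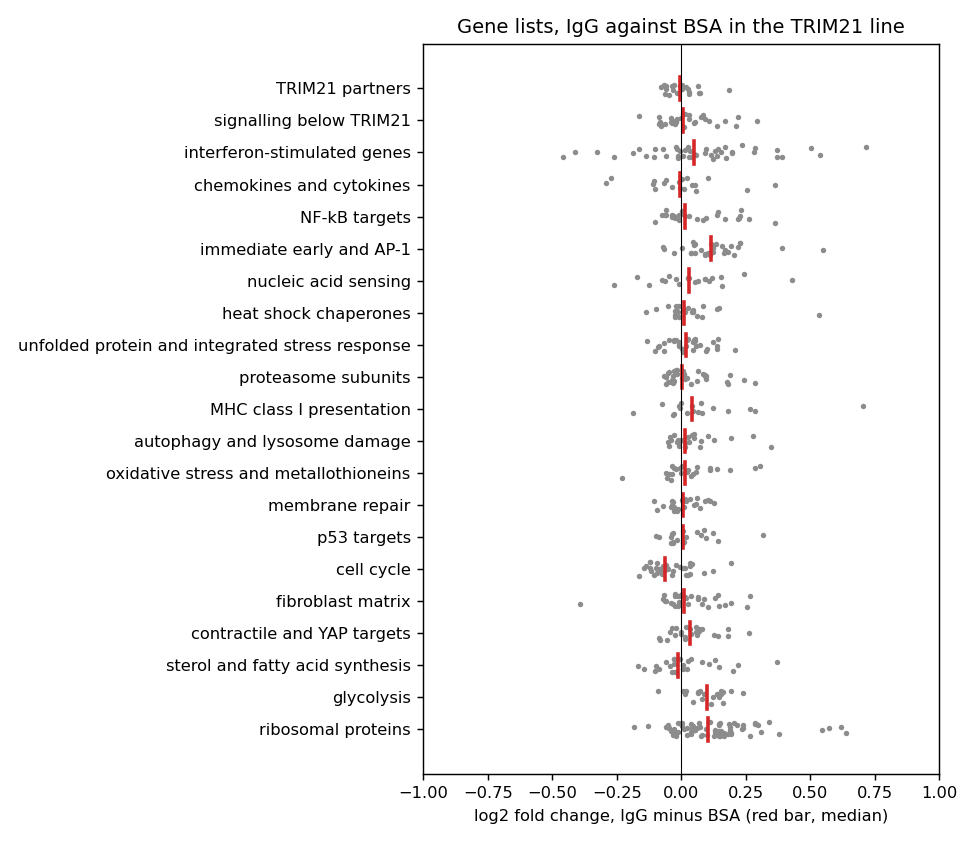
Log2 fold change (IgG minus BSA) of the tested members of 21 gene lists, 1 grey point per gene, with the list median as a red bar. Most medians lie near 0, and the largest are 0.11 for immediate early genes, 0.10 for glycolysis and 0.11 for ribosomal proteins, where no member passed the test.

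Protein quality control was tightly bounded. Of 39 tested proteasome subunit genes 20 were higher and 19 lower (median 0.0018, median bound 1.23-fold), and 35 of 38 well-expressed ones lay within 1.5-fold. The median ran from -0.036 without BSA 14 (14 of 39 higher) to 0.063 without BSA 10 (28 of 39). The base subunit gene Psmd2 stood at 404, 430 and 433 CPM after IgG and 413, 453 and 416 CPM after BSA (bound 1.19-fold). The ubiquitin receptor gene Psmd4 was the only subunit without overlap, at 136, 137 and 135 CPM against 134, 116 and 131 CPM (0.10). The immunoproteasome gene Psmb9 had the highest estimate (0.29, near 1.5 CPM in 5 of 6 libraries) and the core gene Psma6 the lowest (-0.07). Among 23 heat shock genes 12 were higher and 11 lower (median 0.0097), and all 21 well-expressed ones were bounded within 1.5-fold. Their median ran from -0.0072 without BSA 14 to 0.050 without IgG 11, where 20 of 23 were higher. Hsp90ab1 stood at 4260.1, 4249.6 and 4201 CPM after IgG and 4422, 4251 and 3924 CPM after BSA (bound 1.17-fold). Hspa1a, the inducible Hsp70 gene, was under 1 CPM in every library and at 0 in the IgG sample numbered 14, so its estimate of 0.53 (SE 0.708) is imprecise. Hspe1, a mitochondrial chaperonin gene, had the lowest estimate (-0.14).

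Of 33 genes of the unfolded protein and integrated stress responses, 20 were higher and 13 lower (median 0.020). The median ran from -0.015 without IgG 11 to 0.036 without IgG 10. Hspa5, the chaperone BiP, stood at 797, 754 and 945 CPM after IgG and 789, 827 and 845 CPM after BSA (bound 1.2-fold). The most abundant gene, Calr, had a bound of 1.22-fold, and Sdf2l1 and Asns had the highest and lowest estimates (0.21 and -0.13). For MHC class I presentation 12 of 18 tested genes were higher (median 0.042, from 0.0077 without BSA 10 to 0.076 without BSA 11). B2m, the invariant light chain gene, stood at 419, 383 and 423 CPM against 420, 450 and 419 CPM (bound 1.24-fold), while H2-Q4 had the highest estimate (0.70, SE 0.438) through 1 IgG sample, at 8.70 CPM against 3.76 and 3.54 CPM in the others. H2-Q4 has near-identical class I relatives, and its counts are uncertain. Cd1d1 had the lowest estimate (-0.19). Of 25 genes of autophagy and lysosome damage 15 were higher (median 0.014, from -0.021 without IgG 14 to 0.060 without IgG 11). The cargo receptor gene Sqstm1 had a bound of 1.27-fold, Lgals1, the most abundant, of 1.36-fold, and Optn and Tollip had the highest and lowest estimates (0.35 and -0.05). Map1lc3a, an autophagosome membrane gene, had no overlap at 34.2, 39.96 and 35.2 CPM after IgG and 32.8, 30.9 and 31.9 CPM after BSA (0.19).

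Genes of repair and stress responses, which the electroporation shared by both groups could also touch, had list medians near no change but uneven bounds. All 25 tested membrane repair genes were well expressed and bounded within 1.5-fold, with 14 higher and 11 lower (median 0.0063, from -0.026 without BSA 10 to 0.030 without BSA 11). Anxa2, the most abundant annexin gene, stood at 3099, 3081 and 2771 CPM after IgG and 3321, 2799 and 2736 CPM after BSA (bound 1.2-fold). Anxa11, at 41.3, 42.3 and 39.4 CPM against 38.1, 35.3 and 39.0 CPM, and the ESCRT-III gene Chmp2a, at 120, 121 and 124 CPM against 117, 113 and 110 CPM, had no overlap (0.13 and 0.10). The calcium-binding repair gene Pdcd6 had the lowest estimate (-0.11). Of 20 p53 targets 11 were higher (median 0.0077, from -0.049 without IgG 11 to 0.024 without BSA 11), with 16 of 17 well-expressed ones bounded within 1.5-fold. The most abundant was Ccng1 (-0.03, bound 1.29-fold), and the apoptosis gene Bbc3 and the receptor gene Eda2r had the highest and lowest estimates (0.32 and -0.10). The ubiquitin ligase gene Mdm2 had a bound of 1.16-fold and Cdkn1a, the cell cycle inhibitor p21, of 1.2-fold. Of 24 oxidative stress genes 13 were higher (median 0.013, from -0.037 without BSA 14 to 0.040 without IgG 14). Of the 23 well-expressed ones 17 were bounded within 1.5-fold, and the widest bound was 2.14-fold, for Mt2. The ferritin gene Fth1 had a bound of 1.25-fold, the metallothionein gene Mt2 the highest estimate (0.30), with 146 CPM in the BSA sample numbered 11 against 262 and 274 CPM in the other BSA samples, and the cystine transporter gene Slc7a11 the lowest (-0.23, SE 0.347).

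Cell cycle genes were lower after IgG in 25 of 36 cases (median -0.062), with no member past the test. The median was -0.10 at number 10, -0.15 at number 11 and 0.11 at number 14. Top2a, a topoisomerase of dividing cells, stood at 469, 529 and 517 CPM after IgG and 478, 638 and 479 CPM after BSA, and the BSA sample numbered 11 was the high one. Without that sample 27 of 36 genes were higher after IgG and the median was 0.026, and with the GC offset it was -0.033. The lowest median was -0.14 without BSA 14, with 5 of 36 higher. Cdt1, of replication licensing, had the highest estimate (0.19) and the kinetochore motor gene Cenpe the lowest (-0.16). Of the 36 genes 33 were bounded within 1.5-fold.

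Fibroblast matrix genes were abundant and unevenly bounded. Of 32 matrix genes 17 were higher and 15 lower (median 0.0097, from -0.015 without BSA 10 to 0.080 without BSA 14), and 23 of 31 well-expressed ones were bounded within 1.5-fold. Lox stood at 4462, 5618 and 5982 CPM after IgG and 4267, 5966 and 5852 CPM after BSA, so both groups were low at number 10. Loxl1 had the highest estimate (0.26) and Lum the lowest (-0.39, SE 0.761, under 1 CPM). Of 26 contractile genes and YAP targets 18 were higher (median 0.036, and -0.0008 with the GC offset). Without IgG 14 the median was 0.10 with 22 of 26 higher, and without IgG 11 it was -0.0040 with 12 of 26 higher. The focal adhesion gene Zyx had the highest estimate, at 697, 815 and 575 CPM against 586, 499 and 653 CPM (0.26, SE 0.198), and Ankrd1 the lowest (-0.09). Vim, the most abundant, is given above.

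Of 26 sterol and fatty acid synthesis genes 12 were higher and 14 lower (median -0.013). Without BSA 11, 25 of 26 were higher (median 0.085), without IgG 10, 22 of 26 were (0.084), and without BSA 10, 6 of 26 were (-0.099). Mvd had the highest estimate, at 24.3, 32.1 and 29.5 CPM after IgG and 19.4, 20.8 and 26.1 CPM after BSA (0.37, SE 0.201), Idi1 the lowest (-0.17), and the most abundant, the desaturase gene Scd2, a bound of 1.26-fold. Glycolysis genes were higher after IgG in 19 of 20 cases (median 0.10), with 0 past the test. The median was 0.0041 at number 10, 0.51 at number 11 and -0.18 at number 14. Pkm, pyruvate kinase, stood at 4939, 5184 and 4292 CPM after IgG and 4777, 3379 and 4464 CPM after BSA. Pfkl, phosphofructokinase, stood at 689, 756 and 542 CPM against 627, 407 and 647 CPM (0.24, SE 0.237). In both, the BSA sample numbered 11 was the lowest of the 6. Without that sample 10 of 20 glycolysis genes were higher and the median was 0.0025, and the highest median was 0.21 without IgG 14. Pfkfb3 was the 1 member with a lower estimate (-0.09). Of the 19 well-expressed glycolysis genes 14 were bounded within 1.5-fold.

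Ribosomal protein genes were higher after IgG in 64 of 80 cases (median 0.11), and again none passed the test or had groups that did not overlap. Their median was -0.034 at number 10, 0.16 at number 11 and 0.20 at number 14. Rplp1, of the ribosomal stalk, had the highest estimate (0.64, SE 0.454, bound 3.01-fold), at 1782, 1219 and 767 CPM after IgG and 1121, 528 and 775 CPM after BSA. Rpl36 stood at 286, 200 and 114 CPM against 190, 78.0 and 123 CPM (0.62, SE 0.486). Both were higher after IgG at numbers 10 and 11 and slightly lower at 14. Rplp0, the most abundant, differed by 0.29 (bound 1.69-fold), and Rpl30, under 1 CPM, had the lowest estimate (-0.18). Of the 77 well-expressed members 54 were bounded within 1.5-fold, and the widest bound was 3.12-fold. Without the BSA sample numbered 14 the list median was -0.019 with 38 of 80 higher, without BSA 10 it was 0.22 with 73 of 80 higher, and with the GC offset it was 0.092. These genes have many near-identical pseudogenes, so their counts rest on the reads that aligned uniquely and are uncertain.

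The same contrast in the parental line shares no sample with the one above and asks whether the difference depends on the line. There, too, 0 genes passed an adjusted p of 0.05. The unadjusted p-values differed between the lines, with 713 of 12140 genes under 0.05 in the parental line and 45 in the TRIM21 line. The difference between the lines in the IgG against BSA change was tested directly, and 0 of 12140 genes passed (0%), with a smallest adjusted p of 0.843 by edgeR and 482 genes (3.97%) at an unadjusted p under 0.05. Trim21 itself had a line difference of -0.08 on the log2 scale. Across the 9009 well-expressed genes, the log2 fold changes in the 2 lines correlated at -0.511. In the parental line the fitted change correlated at -0.401 with GC content and at 0.652 with transcript length, where the TRIM21 line had 0.612 and -0.253. At numbers 10, 11 and 14 the parental correlations were -0.304, -0.439 and -0.194 with GC content and 0.684, 0.427 and 0.442 with length. In the TRIM21 line both correlations changed sign between numbers. The ribosomal protein genes had a median of -0.24 in the parental line against 0.11 in the TRIM21 line, and the proteasome subunits -0.14 against 0.0018. In neither list did a member pass the test of the line difference, and the part of GC content and length in these medians was not tested.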

How the data were processed

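Polyadenylated RNA was sequenced from 18 samples in 6 groups of 3, grouped by cell line and treatment as the labels give them. The deposited values are raw counts of reads per gene, 1 table per sample with 24062 genes, and gene totals leave out reads given to no gene (13.9% to 18.3% of counted reads in the 6 samples compared) and reads aligned to several places. The submitters' processing notes name bcl2fastq 2.19.1.403, FastQC 0.11.5, STAR 2.5.1b, HTSeq 0.6.0, DESeq2 1.6.3 and mm10; the strand setting of the counting is not given in the sources used here, so overlapping and antisense genes are uncertain.

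The analysis used R 4.3.3 and edgeR 4.0.16, with filterByExpr (minimum count 10, minimum total 15), which kept 12140 genes, TMM factors (0.981 to 1.03 in the 6 samples), and a quasi-likelihood fit to all 18 samples with 1 mean per group and no replicate block, so that the 6 groups share 1 estimate of the spread. Benjamini-Hochberg adjustment ran over all tested genes, with a threshold of 0.05. A 95% interval is the estimate plus or minus the t quantile times the SE of that fit. Levels are TMM-scaled CPM; log2 fold changes are IgG minus BSA. The procedure was tested on simulated data.

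Named genes are Trim21; the 10 largest positive and negative differences among well-expressed genes (at least 10 CPM) with 1 direction at all 3 numbers; the 5 smallest p-values in each direction; the 5 most abundant; the 5 tightest bounds; and each list's most abundant, highest and lowest member. The most abundant genes are those with the highest mean over all 18 samples. Not every gene that a count covers is reported here. Comparisons, members and lists were chosen with earlier results of these data known. Positions come from the GENCODE vM21 annotation of GRCm38, with 22750 symbols matched directly, 935 through older symbols and 377 unmatched. Alternatives were DESeq2 size factors, no filter, a stricter filter, the replicate number as a block, only the samples compared, the Wald test of DESeq2 1.42.0, voom in limma 3.58.1, leaving out each of the 6 samples, and, chosen after seeing the data, an offset for transcript GC content.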

Additional observations from a re-analysis of the deposited data

How the results depend on the processing

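The count of genes at an adjusted p under 0.05 between IgG and BSA was 0 in every alternative run, edgeR, limma-voom and DESeq2 alike. The count at an unadjusted p under 0.05, 45 as reported, was 119 without a filter, 23 with at least 10 counts in every sample, 26 with the DESeq2 Wald test, 116 with only the samples compared, and 32 to 115 when 1 sample was left out, with 115 without the BSA sample numbered 14, 106 without the IgG sample numbered 14 and 75 without the BSA sample numbered 10. Well-expressed genes bounded within 1.5-fold numbered 8360 as reported, 7590 to 8294 when 1 sample was left out, 8339 to 8905 under the other alternatives, and 449 with Bonferroni intervals, which are wider by construction.

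Whether the title numbers pair the samples was checked by correlating deviations from the group means across genes. The correlation was 0.475 at number 10, 0.0383 at number 11 and 0.150 at number 14, and the IgG sample numbered 14 correlated best with the BSA sample numbered 11 (0.267). Samples of the same number averaged 0.221 and those of different number -0.110. Deviations from a group mean cancel within the group, so the second average follows closely from the first and adds no separate evidence. Since number 11 fell below the set minimum of 0.1, the number was used as a block only in alternatives. Well-expressed genes bounded within 1.2-fold numbered 2034 without a block and 3304 with it. With the block and only the samples compared they numbered 4130. With the replicate block 70 genes had an unadjusted p under 0.05, with the block and only the samples compared 270, and with the block and the GC offset 81; none passed the adjustment. The line difference called 0 genes in every alternative but 1. With the replicate block and only the samples compared it called 6, Avpi1, Cox17, Uqcr11, Ndufa7, Cox14 and Mrpl12 (edgeR adjusted p 0.0383 to 0.0475). Its count at an unadjusted p under 0.05 depended strongly on the fit. That count was 482 as reported, 812 with the replicate block, 1244 with only the samples compared and 2382 with both. It was 200 without the BSA sample numbered 11. The GC offset was chosen after seeing the data. With it 50 genes had an unadjusted p under 0.05 between IgG and BSA.

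Trim21 changed sign within its error, at 0.012 with the GC offset and 0.014 with the GC offset and the block, against -0.05 to -0.009 when 1 sample was left out. Of the log2 fold changes recomputed for single genes other than Trim21, by sign alone, 1094 kept their direction and 16 reversed, and the cause was not tested. Over the fits that left out 1 sample, these genes ran as follows. Faf1 ran from -0.18 to 0.0033 (highest without BSA 11), Irf7 from -0.40 to 0.069 (without BSA 14; 0.011 without IgG 10) and Il6 from -0.074 (without IgG 14) to 0.74. Hspa1a ran from -0.56 (without IgG 10) to 1.12, Asns from -0.30 to 0.038 (without IgG 14), Psma6 from -0.21 to 0.033 (without BSA 10) and Slc7a11 from -0.54 to 0.11 (without IgG 14; 0.042 without BSA 10). Eda2r ran from -0.21 to 0.014 (without BSA 10), Cenpe from -0.36 to 0.026 (without BSA 11), Lum from -1.03 to 0.067 (without BSA 14; 0.062 without IgG 11), Idi1 from -0.31 to 0.044 (without BSA 11) and Rpl30 from -0.48 to 0.30 (without BSA 10). With limma-voom Hspa1a was -0.58. Depth limits genes under 1 CPM, where 35.5% were bounded within 2-fold, and from 100 CPM up 95.3% were bounded within 1.5-fold.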

Other observations

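The 6 genes that passed the test of the line difference in 1 alternative were picked out by that fit and are given as values only. Their line differences in that fit ran from 0.66 (Mrpl12) to 1.04 (Uqcr11) on the log2 scale, with 0.80 for Cox14. Such a difference joins the changes of both lines, and the parental levels are not reported here. Cox17 and Cox14 serve the assembly of cytochrome c oxidase, Uqcr11 and Ndufa7 encode small subunits of respiratory complexes, Mrpl12 encodes a mitochondrial ribosomal protein, and Avpi1 is a vasopressin-induced gene. In the TRIM21 line Cox14 stood at 34.0, 32.5 and 28.7 CPM after IgG and 29.3, 26.5 and 25.3 CPM after BSA, higher after IgG at each number although the groups overlapped. Uqcr11 stood at 78.5, 59.3 and 46.9 CPM against 72.8, 39.0 and 44.4 CPM. In the fit to all 18 samples without the replicate block, none of the 6 passed within the TRIM21 line or between the lines.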
